A study of Mus musculus with 12 samples.

Results

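Mitochondria divide, join and are removed by a small set of dedicated proteins, and 9 genes of that machinery are described here in cultured mouse proximal tubule (PT) cells with and without the TGF-β type II receptor (TβRII). They are Mfn1, Mfn2 and Opa1 (fusion), Dnm1l and Fis1 (fission), and Pink1, Bnip3, Bnip3l and Fundc1 (mitophagy). The genes were chosen by name for their role, and each was found by its Ensembl identifier and read from its transcript with the highest total count. All 9 were present among 25514 genes, and all 9 were among the 12971 genes with enough counts to be tested. The study compared 4 groups of 3 RNA-seq libraries: TβRIIflox/flox and TβRII-/- PT cells, each without treatment and after H2O2. Both lines came from male mice and carried the floxed Tgfbr2 alleles together with the Immorto-mouse transgene (H2ts6 in the labels), a T antigen that drives division only at the lower culture temperature. They were grown at 33 °C with interferon γ and moved to 37 °C before the experiment, and TβRII-/- PT cells were made from TβRIIflox/flox PT cells by adenoviral Cre in culture. H2O2 was given for 24 h in serum-free medium, after serum starvation according to the methods, whereas untreated cells stayed in their complete medium, which held serum, hydrocortisone, insulin and triiodothyronine. H2O2 and the loss of serum therefore cannot be told apart. The methods do not say whether the other supplements were also left out of the serum-free medium. The dose was 200 mM in the sample labels and 200 μM in the study's methods. Each genotype was 1 cell line, so a genotype difference cannot be told apart from other differences between the lines, and the replicates are not described as separate derivations.

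Fusion of the outer membrane is carried out by the mitofusins Mfn1 and Mfn2 and that of the inner membrane by Opa1, large GTPases that tether and merge membranes. Fission is driven by Dnm1l (Drp1), a dynamin-like GTPase that is recruited from the cytosol by adaptors on the outer membrane, and Fis1, conserved from yeast, is an outer membrane protein of that machinery. Mitophagy, the removal of mitochondria by autophagy, is started either by the kinase Pink1, which accumulates on damaged mitochondria and marks them with phosphorylated ubiquitin, or by receptors in the outer membrane that bind Atg8 proteins directly. Bnip3, Bnip3l (Nix) and Fundc1 are such receptors, and Bnip3 and Bnip3l are known targets of hypoxia-inducible factors. Tubule cells are rich in mitochondria, and a balance of these processes is known to matter in kidney injury.

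The gene totals of the libraries were between 15870155 and 20857618 counts. Tgfbr2 was counted in every library, between 6358 and 6782 normalized counts in untreated TβRII-/- PT cells and between 7562 and 9248 in untreated TβRIIflox/flox PT cells. After H2O2 it had 7116 to 7311 and 13275 to 13918, so the deletion was not visible as an absence of the transcript. These are counts of a whole transcript and do not show which exons were read. The study's methods state that the deletion was verified by immunoblot and RNA-seq. Of 15 proximal tubule markers 7 were tested, Lrp2, Cubn and Aqp1 among them, while the defining genes Slc34a1, Slc22a6, Slc22a8, Miox, Pck1 and Hnf4a had at most 3 counts in every library. None of 9 distal nephron markers was tested, and Nphs1, Pecam1, Emcn, Col1a2, Col3a1, Adgre1 and Cd3e, which define podocytes, endothelium, fibroblasts and leukocytes, also had at most 3 counts. The summed level of the proximal tubule list was 23043 to 28908 normalized counts in untreated TβRIIflox/flox PT cells and 16407 to 17503 in untreated TβRII-/- PT cells. It was 31642 to 34390 and 16871 to 18148 after H2O2. Lrp2 and Aqp1 made up most of this sum. Their untreated means were 17280 and 7103 in TβRIIflox/flox and 11016 and 4421 in TβRII-/- PT cells. Gatm went the other way, with untreated means of 938 and 1355. In H2O2-treated TβRIIflox/flox PT cells Aqp1 rose to 14611, whereas Lrp2 had 17634 and Cubn, Gatm and Ggt1 were lower than in untreated cells. The sum of the 7 fibroblast and smooth muscle markers was 523 to 551 in untreated TβRIIflox/flox and 2366 to 2632 in untreated TβRII-/- PT cells, and 249.98 to 279.6 and 627 to 764 after H2O2. Of these Acta2 carried the difference between untreated genotypes, with untreated means of 469 and 2495, whereas Col1a1 had 42.0 and 14.3 and Pdgfrb 16.3 and 2.41. Of the podocyte markers Synpo had untreated means of 2900.4 in TβRIIflox/flox and 367 in TβRII-/- PT cells, and Podxl 36.2 and 519.95. The 6 leukocyte markers, mostly Cd68, summed to 139 to 147 and 236 to 253. The 5 endothelial markers, mostly Kdr, summed to 127 to 138 in untreated TβRIIflox/flox and 465 to 586 in untreated TβRII-/- PT cells. The part of these shifts in the results below was not tested.

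Sequence was read from RefSeq windows of GRCm38.p6 that run from 250 bases before to 50 bases after a gene's start and that matched 8 of the 9 genes, all but Bnip3l. Both strands were searched for ACGTG and GCGTG (cores of the hypoxia response element), TGTTTAC (FoxO), TGACGTCA (CREB), CACGTG (the E-box, which holds ACGTG on both strands) and the palindromic motif of NRF1. The 250 bases upstream of Bnip3 and of Pink1 are printed because Bnip3 and Pink1 changed with H2O2 in both genotypes and in opposite directions (Bnip3l, which also fell in both, had no window). Capitals mark the matches.
Bnip3, chr7:138909507-138909756, minus strand: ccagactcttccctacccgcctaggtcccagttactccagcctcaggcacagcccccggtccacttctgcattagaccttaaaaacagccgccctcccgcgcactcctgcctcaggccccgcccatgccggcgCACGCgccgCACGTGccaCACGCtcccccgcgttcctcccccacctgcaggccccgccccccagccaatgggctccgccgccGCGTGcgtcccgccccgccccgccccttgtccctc
Pink1, chr4:138326297-138326546, minus strand: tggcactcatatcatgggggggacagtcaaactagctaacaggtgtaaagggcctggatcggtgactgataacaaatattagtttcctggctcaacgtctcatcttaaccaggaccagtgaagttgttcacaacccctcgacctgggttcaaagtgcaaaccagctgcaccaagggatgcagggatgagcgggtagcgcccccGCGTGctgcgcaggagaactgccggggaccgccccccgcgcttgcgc
The Bnip3 window held 5 matches to the hypoxia cores, of which 2 lay on opposite strands of 1 E-box. As many matches stood in 1.66% of all 32851 windows, whose median was 0. The Bnip3 window was 71.7% G and C, the highest content among the members' windows, and these shares took no account of base content. Pink1 held 1 GCGTG, and windows of Mfn2, Fis1 and Dnm1l held matches as well. GCGTG stood in 32.4% and ACGTG in 19.6% of all windows, and the NRF1 motif, found upstream of Opa1 alone among the members, in 0.971%. The FoxO and CREB motifs stood in 3.65% and 1.79% of all windows and in none of the members' windows. No match of any kind was found in the windows of Mfn1 and Fundc1.

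Levels of the 9 genes were compared with each other as CPM (each count scaled to the effective library size, the library total after normalization) per kilobase of transcript. In untreated TβRIIflox/flox PT cells Fis1 was highest with a level of 136 ± 6.76 (SD, n = 3), above 97.5% of the genes tested, on a transcript of only 786 bases. Dnm1l followed at a level of 28.7 ± 1.46 and Bnip3l at 25.5 ± 2.73, and the libraries of these neighbours overlapped. Opa1 had a level of 17.3 ± 0.933, Mfn2 13.1 ± 0.640, Mfn1 7.999 ± 0.431, Fundc1 6.56 ± 0.419, Bnip3 4.95 ± 0.422 and Pink1 2.95 ± 0.361, and no 2 neighbours in this order overlapped. Pink1, the lowest, stood above 28.2% of the genes tested. The order was not fixed. Fundc1 passed above Mfn1 in both TβRII-/- groups, with levels of 12.2 ± 0.447 against 6.98 ± 0.386 when untreated, and Pink1 passed above Bnip3 in both H2O2 groups. After H2O2 Pink1 had a level of 3.82 ± 0.280 and Bnip3 one of 2.99 ± 0.529 in TβRIIflox/flox PT cells, without overlap, and 4.23 ± 0.370 and 3.90 ± 0.449 in TβRII-/- PT cells, with overlap.

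**Figure D1:**
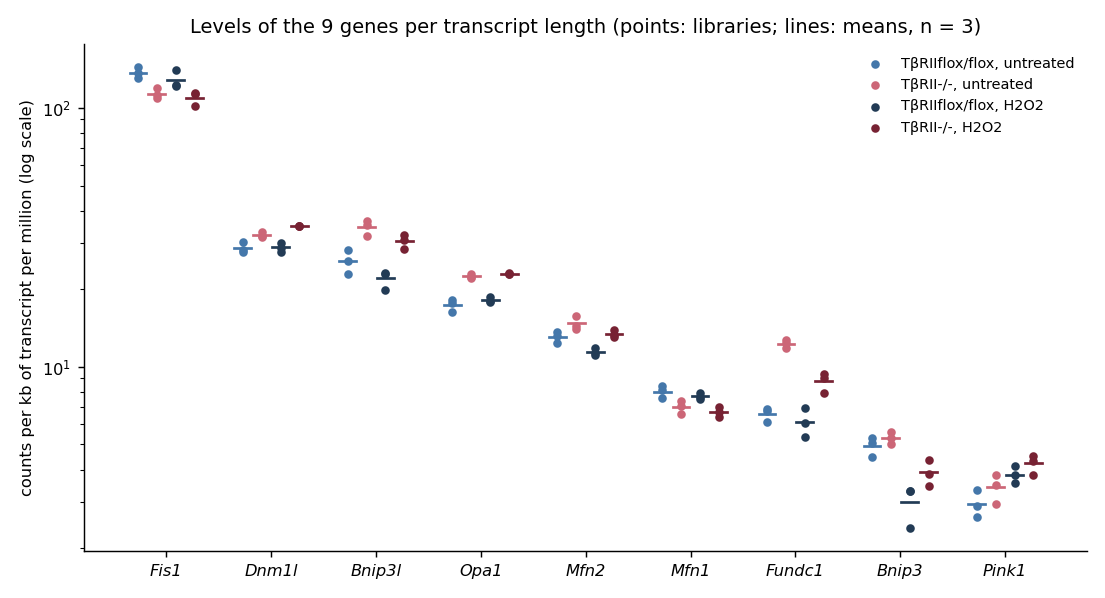
Levels of the 9 genes as CPM per kilobase of transcript, on a log scale, in the 12 libraries (points) with the mean of each group (lines, n = 3). Fis1 lies above all others in every group, Fundc1 lies above Mfn1 only in TβRII-/- PT cells, and Pink1 lies above Bnip3 only after H2O2.

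The first question was how the genes differ between genotypes. In untreated cells 7 of the 9 differed at an adjusted p under 0.05 (edgeR's quasi-likelihood test, Benjamini-Hochberg over all genes tested), 5 higher and 2 lower in TβRII-/- PT cells. The background was large, with 64.7% of all genes called, 33.3% higher and 31.4% lower. After H2O2 8 of 9 differed, 6 higher and 2 lower, where 66.4% of all genes were called, 35.1% higher and 31.3% lower. The members' share is thus near that of all genes. The libraries of the genotypes did not overlap for 7 members in untreated cells and 8 after H2O2, beside 65.3% and 71.0% of all genes. Their median log2 difference was 0.17 in untreated cells and 0.27 after H2O2, beside 0.01 and 0.02 over all genes tested, and the median size of the difference irrespective of sign was 0.22 and 0.27, beside 0.34 and 0.35. The 2 comparisons set different libraries of the same 2 cell lines against each other. Both took their spread from 1 fit of all 12 libraries. In bulk RNA, fewer cells of a kind and less RNA per cell cannot be told apart. The largest difference was that of Fundc1, the only member past a fold of 1.5 with an unadjusted p under 0.01 in untreated cells, a limit that 27.0% of all genes passed. No member passed it after H2O2, where 29.8% did.

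**Figure D2:**
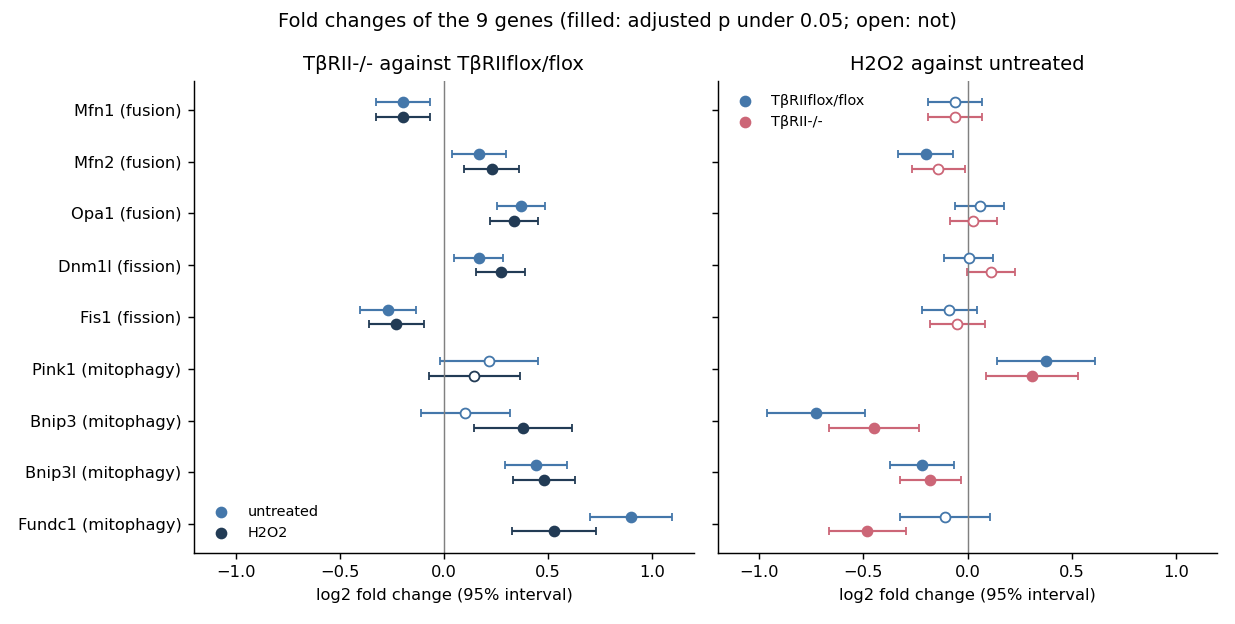
Log2 fold changes of the 9 genes with 95% intervals, between genotypes (left, untreated and H2O2) and between H2O2 and no treatment (right, in each genotype); filled points have an adjusted p under 0.05. Fundc1 and Bnip3l lie to the right of 0 in both genotype comparisons and Mfn1 and Fis1 to the left, and Bnip3 lies farthest to the left with H2O2 in TβRIIflox/flox PT cells.

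Opa1 (chr16:29579281-29663127), the GTPase of the inner membrane, had 1915, 1769 and 1965 normalized counts in untreated TβRIIflox/flox PT cells and 2484, 2416 and 2399 in untreated TβRII-/- PT cells. After H2O2 it had 1923, 1944 and 2015 against 2477, 2469 and 2492. Every TβRII-/- library lay above every TβRIIflox/flox library, with and without H2O2. The log2 difference was 0.37 (SE 0.057, adjusted p = 1.10e-06) in untreated cells and 0.34 (SE 0.056, adjusted p = 3.80e-06) after H2O2. The 2 mitofusins differed in opposite directions. Mfn1 (chr3:32529443-32579225) had 1133, 1218 and 1260.4 normalized counts in untreated TβRIIflox/flox against 989, 1105 and 1059 in untreated TβRII-/- PT cells, with no overlap, a log2 difference of -0.20 (SE 0.064, adjusted p = 0.00812). Without replicate 1 of untreated TβRII-/- PT cells the adjusted p was 0.0569. After H2O2 the difference was again -0.20 (adjusted p = 0.00771). Mfn2 (chr4:147873586-147904909), which also links mitochondria to the endoplasmic reticulum, had 1129, 1024 and 1087 against 1190.1, 1153 and 1301 normalized counts in untreated cells. The groups did not overlap, and the log2 difference of 0.17 (SE 0.063) had an adjusted p of 0.0200. It was 0.119 without replicate 2 of TβRIIflox/flox and 0.149 without replicate 3 of TβRII-/- PT cells. After H2O2 Mfn2 had 913, 935 and 973 against 1072, 1094 and 1141, a log2 difference of 0.23 (SE 0.064, adjusted p = 0.00225).

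The fission genes also differed in opposite directions. Dnm1l (chr16:16312228-16359038) had 2675, 2636 and 2895 normalized counts in untreated TβRIIflox/flox against 3035, 3150.4 and 3027 in untreated TβRII-/- PT cells. The TβRII-/- libraries were all higher, by a log2 difference of 0.17 (SE 0.057, adjusted p = 0.0118). The call was lost without replicate 2 of TβRIIflox/flox (adjusted p = 0.0668) or of TβRII-/- PT cells (adjusted p = 0.0528). After H2O2 Dnm1l had 2639, 2742 and 2863 against 3316, 3321 and 3316 counts, the widest gap between its groups, with a log2 difference of 0.27 (SE 0.057, adjusted p = 0.000101). Fis1 (chr5:136953275-136966234) had 1773, 1956 and 1849 against 1479.7, 1526 and 1625 normalized counts in untreated cells, all TβRII-/- libraries being lower. Its log2 difference was -0.27 (SE 0.065, adjusted p = 0.000622) in untreated cells and -0.23 (SE 0.065, adjusted p = 0.00269) after H2O2, where the groups had 1911, 1674 and 1657 against 1536, 1548 and 1389 counts, again without overlap.

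Among the mitophagy receptors Fundc1 (chrX:17519967-17572329) was higher in TβRII-/- PT cells in every library. Untreated TβRIIflox/flox PT cells had 210.4, 233 and 238 normalized counts and untreated TβRII-/- PT cells 407, 425 and 437. The fold was 1.87, a log2 difference of 0.90 (SE 0.096, adjusted p = 9.97e-10), and it lay between 0.84 and 0.93 on the log2 scale over all alternatives. After H2O2 the counts were 209, 185 and 238 against 322, 312 and 273, a fold of 1.44 and a log2 difference of 0.53 (SE 0.100, adjusted p = 2.51e-05). Bnip3l (chr14:66985238-67008877), best known for the removal of mitochondria from maturing red cells, had 1297, 1456 and 1609 normalized counts in untreated TβRIIflox/flox against 1819.6, 2082 and 2015 in untreated TβRII-/- PT cells. After H2O2 it had 1314, 1130.1 and 1302 against 1755, 1842 and 1624. The genotypes did not overlap under either condition, and the log2 differences were 0.44 (SE 0.073, adjusted p = 3.86e-06) and 0.48 (SE 0.074, adjusted p = 9.82e-07).

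Bnip3 (chr7:138890836-138909506) and Pink1 (chr4:138313409-138326296) showed less. Bnip3 had 284, 336 and 320.5 normalized counts in untreated TβRIIflox/flox and 319, 353 and 336 in untreated TβRII-/- PT cells. These groups overlapped, and the log2 difference of 0.10 had a 95% interval from -0.11 to 0.32 (adjusted p = 0.403). After H2O2 the groups were apart, with 209, 151 and 209 against 219.7, 245 and 276 counts and a log2 difference of 0.38 (SE 0.115, adjusted p = 0.00437). That call rested on replicate 2 of H2O2-treated TβRIIflox/flox PT cells, the library with 151 counts, without which the difference was 0.21 (adjusted p = 0.112). Pink1 had 170.4, 217 and 188 against 249, 228 and 192 normalized counts in untreated cells and 268, 231 and 248 against 248, 295 and 282 after H2O2. The genotypes overlapped under both conditions. The log2 difference was 0.22 with an interval from -0.02 to 0.45 (adjusted p = 0.102) in untreated cells and 0.15 with an interval from -0.07 to 0.36 (adjusted p = 0.233) after H2O2. In untreated cells Pink1 passed the threshold without replicate 2 of TβRIIflox/flox (adjusted p = 0.0398) or replicate 3 of TβRII-/- PT cells (adjusted p = 0.0286).

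**Figure D3:**
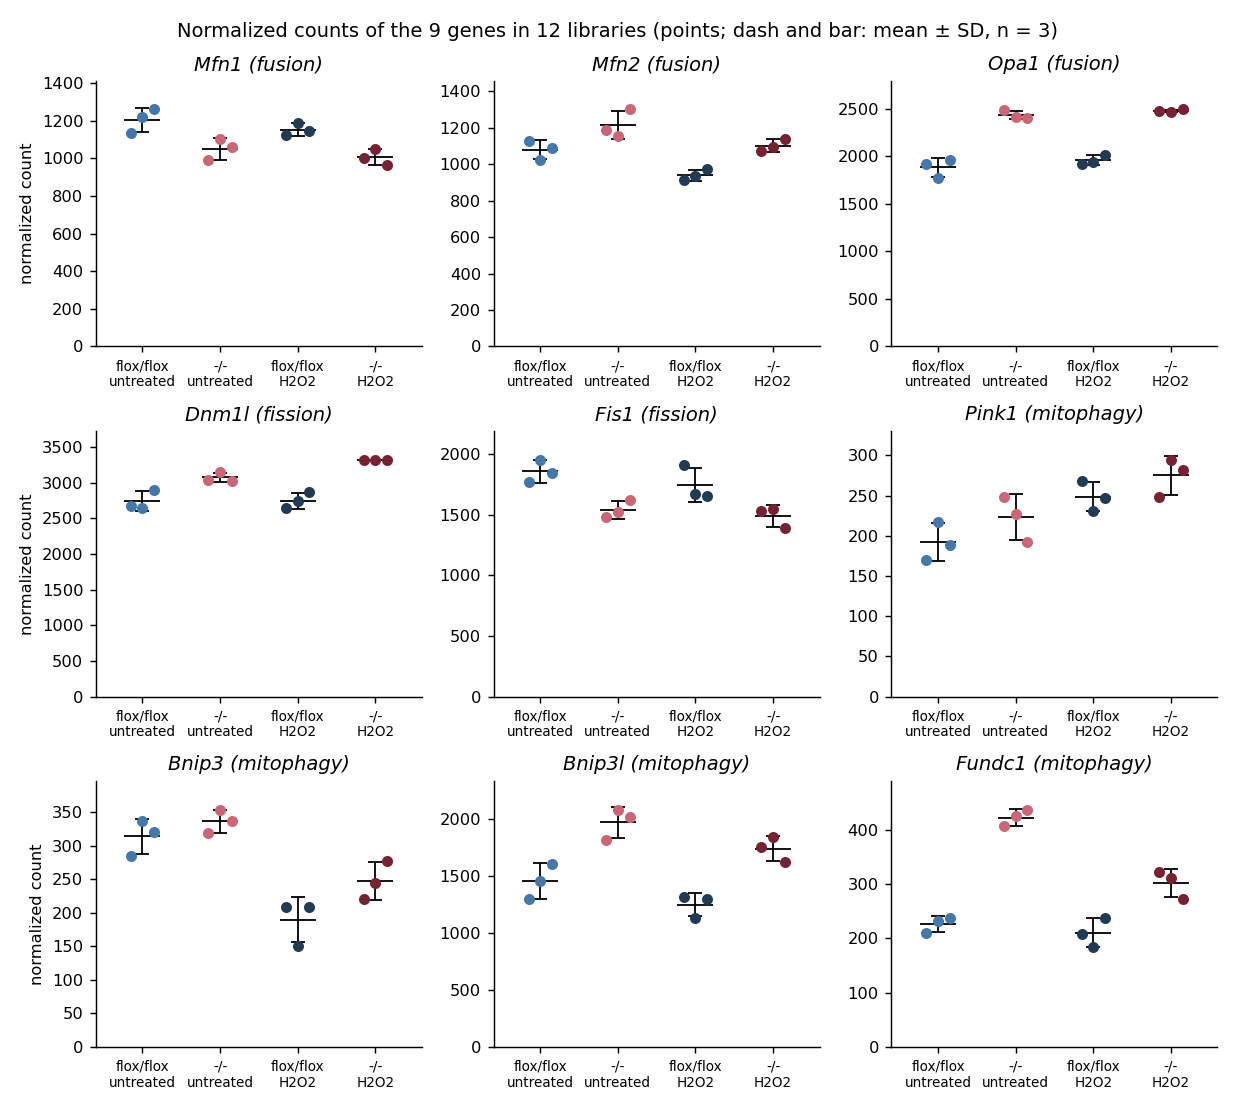
Normalized counts of the 9 genes in every library (points in replicate order), with the mean and SD of each group (dash and bar, n = 3); each axis starts at 0. Opa1, Bnip3l and Fundc1 are higher and Fis1 is lower in TβRII-/- PT cells with and without H2O2, and Bnip3 is lower after H2O2 in both genotypes.

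The genotypes are 2 cell lines, and each gene was therefore set beside its neighbours on the chromosome, the 12 nearest genes tested on each side. In untreated cells the 24 neighbours of Opa1 had a median log2 difference of 0.39, beside 0.37 for Opa1 itself, and 14 of them were called higher and 3 lower. Those of Dnm1l, on the same chromosome, had a median of 0.38 beside 0.17 for Dnm1l, with 15 higher and 2 lower. The neighbours of Mfn1 had a median of -0.22 beside -0.20 for Mfn1, and those of Fis1 one of -0.48 beside -0.27 for Fis1, with 19 of the 24 lower. These 4 genes thus differed in the direction of their neighbours, and Dnm1l and Fis1 by less than the median neighbour. Over all tested genes of a chromosome the untreated median was 0.15 on chromosome 16 (Opa1, Dnm1l) and -0.13 on chromosome 3 (Mfn1). It was 0.29 on chromosome 5, opposite in sign to Fis1 and its neighbours. The median of the neighbours was -0.04 around Fundc1, beside 0.90 for the gene itself. It was 0.09 around Bnip3l, 0.02 around Mfn2, -0.02 around Pink1 and 0.13 around Bnip3, which had differences of 0.44, 0.17, 0.22 and 0.10. After H2O2 the neighbours' medians were 0.39 for Opa1, 0.47 for Dnm1l, -0.14 for Mfn1, -0.52 for Fis1, -0.08 for Fundc1, -0.00 for Bnip3l, -0.12 for Mfn2, -0.05 for Pink1 and 0.17 for Bnip3. The part of such regional shifts in the values of the members was not tested.

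**Figure D4:**
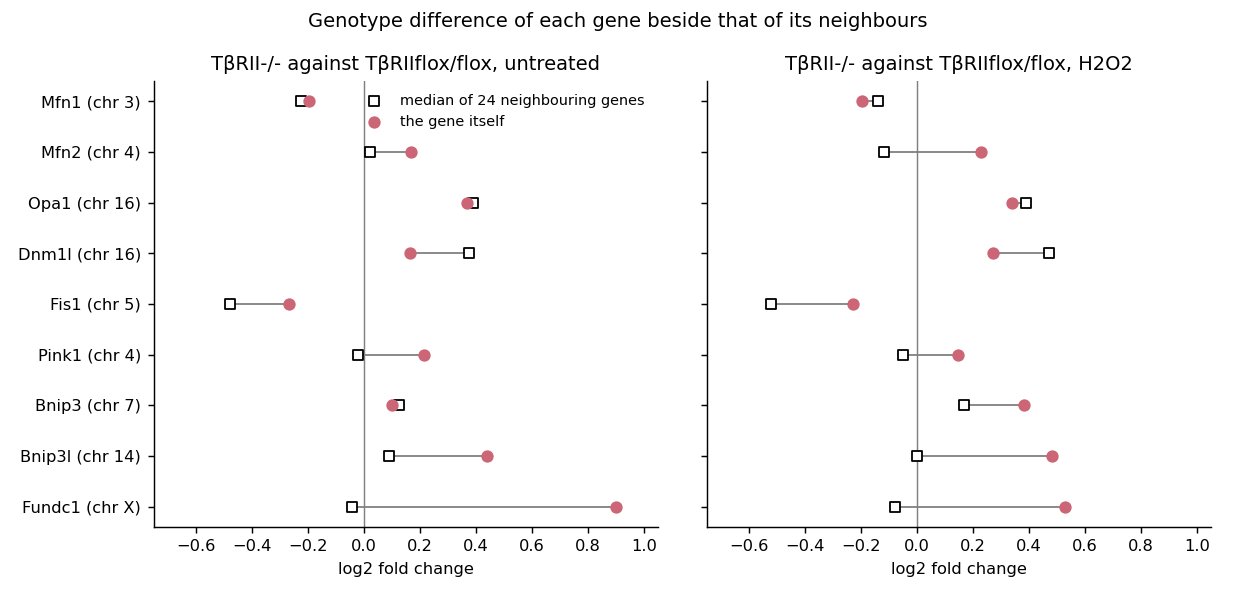
Log2 fold change between genotypes of each of the 9 genes (filled points) and the median of its 24 nearest tested neighbours (open squares), in untreated cells (left) and after H2O2 (right). Point and square lie close together for Mfn1 and Opa1, and far apart for Fundc1 and Bnip3l.

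The other genes of the machinery were grouped by role in lists. Of 16 fission adaptors and regulators, 3 were higher and 5 lower in untreated TβRII-/- PT cells, with a median log2 difference of -0.04. Mief1, an adaptor that recruits Dnm1l, was higher by 0.54 (SE 0.080, adjusted p = 5.60e-07), whereas Akap1, which anchors protein kinase A at the outer membrane, was lower by a log2 difference of -0.37 (SE 0.070, adjusted p = 3.00e-05) and the actin nucleator Spire1 by -0.56 (SE 0.208, adjusted p = 0.0186). After H2O2 5 were higher and 6 lower, 11 in all, or 5 without replicate 2 of H2O2-treated TβRII-/- PT cells. Of 19 tested fusion partners, Opa1 proteases and cristae junction genes 5 were higher and 2 lower in untreated cells. Samm50, of the sorting and assembly machinery, differed by 0.53 (SE 0.066, adjusted p = 2.15e-08) and Yme1l1, a protease that cleaves Opa1, by 0.50 (SE 0.060, adjusted p = 9.12e-09). Spg7, a subunit of the matrix AAA protease, was lower by a log2 difference of -0.65 (SE 0.064, adjusted p = 1.34e-10) after H2O2, where 6 of the list were higher and 4 lower. Of the fission list 8 of 16 genes were called in untreated cells and 68.8% after H2O2, and of the fusion list 36.8% and 52.6%, beside 64.7% and 66.4% of all genes.

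Of 21 tested genes of the Pink1 pathway, 11 were higher and 3 lower in untreated TβRII-/- PT cells (median log2 difference 0.16) and 9 were higher and 3 lower after H2O2 (median 0.11). That is 66.7% and 57.1% of the list, beside 64.7% and 66.4% of all genes. Tomm7, the subunit of the outer membrane translocase that helps to hold Pink1, was higher by 0.86 (SE 0.083, adjusted p = 1.05e-10) in untreated cells and by 1.09 (SE 0.085, adjusted p = 6.14e-13) after H2O2. Pgam5, a phosphatase known to act on Fundc1, was higher by 0.69 (SE 0.070, adjusted p = 2.67e-10) in untreated cells, and Tomm20, an import receptor, was lower by a log2 difference of -0.58 (SE 0.060, adjusted p = 4.82e-10) after H2O2. Of 16 other mitophagy receptors, adaptors and regulators 6 were higher and 2 lower in untreated cells, and 8 higher and 1 lower after H2O2, that is 8 of 16 and 56.2%, beside the same shares of all genes. Optn, an adaptor that binds ubiquitin and Atg8 proteins, was higher by 1.94 (SE 0.095, adjusted p = 3.90e-18) and by 1.86 (SE 0.092, adjusted p = 4.11e-18), more than any of the 9 members. Tax1bp1, an adaptor of the same kind, was higher by 0.44 (SE 0.065, adjusted p = 4.97e-07) in untreated cells. All 5 genes of the Atg8 family differed in untreated cells, 4 higher and 1 lower, beside 64.7% of all genes. Without replicate 1 of TβRIIflox/flox PT cells 3 of them differed. In untreated cells Gabarapl1 was higher by 1.32 (SE 0.065, adjusted p = 4.49e-18) and Map1lc3b (LC3B) was lower by a log2 difference of -0.55 (SE 0.067, adjusted p = 1.41e-08). After H2O2 4 of the 5 differed, 3 higher and 1 lower, beside 66.4% of all genes.

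The second question was how the genes respond to H2O2 in serum-free medium. In TβRIIflox/flox PT cells 4 of 9 changed, 1 up and 3 down, where 41.6% of all genes were called, 21.0% higher and 20.5% lower. In TβRII-/- PT cells 4 of 9 changed as well, 1 up and 3 down, beside 39.6% of all genes, 20.5% higher and 19.1% lower. Treated and untreated libraries did not overlap for 3 members in TβRIIflox/flox and 4 in TβRII-/- PT cells, beside 47.4% and 52.1% of all genes. Bnip3 fell and Pink1 rose in both genotypes, Bnip3l fell slightly in both, Mfn2 fell in TβRIIflox/flox and Fundc1 fell in TβRII-/- PT cells. Mfn1, Opa1, Dnm1l and Fis1 were not called in either genotype. Of these Dnm1l had no overlap in TβRII-/- PT cells, where it was higher after H2O2 by a log2 difference of 0.11 (SE 0.057, adjusted p = 0.119). The members' median log2 change was -0.09 in TβRIIflox/flox and -0.06 in TβRII-/- PT cells, beside 0.01 and 0.02 over all genes.

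Bnip3 had 284, 336 and 320.5 normalized counts in untreated and 209, 151 and 209 in H2O2-treated TβRIIflox/flox PT cells. No treated library reached the lowest untreated one. The level after H2O2 was 0.604 of the untreated level, a log2 change of -0.73 (SE 0.114, adjusted p = 5.97e-06), larger in size than that of 91.6% of all genes tested, and Bnip3 was the only member past a fold of 1.5 in that genotype, a limit that 7.56% of all genes passed. In TβRII-/- PT cells the counts were 319, 353 and 336 before and 219.7, 245 and 276 after H2O2, again without overlap, and the log2 change was -0.45 (SE 0.106, adjusted p = 0.00109). No member passed a fold of 1.5 there, where 7.77% of all genes did. Bnip3l went from 1297, 1456 and 1609 to 1314, 1130.1 and 1302 counts in TβRIIflox/flox PT cells. The groups overlapped, and the log2 change of -0.22 (SE 0.075, adjusted p = 0.0187) lost its call without replicate 2 (adjusted p = 0.0509) or 3 (0.163) of the untreated or replicate 2 (0.158) of the treated cells. Bnip3l in TβRII-/- PT cells went from 1819.6, 2082 and 2015 to 1755, 1842 and 1624, with overlap and a log2 change of -0.18 (SE 0.072, adjusted p = 0.0457). That call was lost with DESeq2 (adjusted p = 0.0635), with a stricter filter on low counts (adjusted p = 0.0531), with the replicate number as a block (adjusted p = 0.0531) and without any 1 of 4 libraries, replicates 2 and 3 of the untreated and 1 and 3 of the treated cells (adjusted p = 0.0908 to 0.216).

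Fundc1 had 210.4, 233 and 238 normalized counts in untreated and 209, 185 and 238 in H2O2-treated TβRIIflox/flox PT cells. These overlapped, with a log2 difference of -0.11 and a 95% interval from -0.33 to 0.11 (adjusted p = 0.430). In TβRII-/- PT cells it went from 407, 425 and 437 to 322, 312 and 273. Every treated library lay below every untreated one, and the log2 change was -0.48 (SE 0.091, adjusted p = 8.18e-05). Pink1 went the other way. Its 170.4, 217 and 188 counts in untreated TβRIIflox/flox PT cells stood against 268, 231 and 248 after H2O2, without overlap and with a log2 change of 0.38 (SE 0.115, adjusted p = 0.00871). The 249, 228 and 192 counts of untreated TβRII-/- PT cells stood against 248, 295 and 282. The groups overlapped, with a log2 change of 0.31 (SE 0.108, adjusted p = 0.0230). This call was lost with DESeq2 (adjusted p = 0.0540) and without replicate 3 of the untreated (0.165) or replicate 2 (0.113) or 3 (0.0663) of the treated cells.

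Mfn2 went from 1129, 1024 and 1087 to 913, 935 and 973 counts in TβRIIflox/flox PT cells. All treated libraries were lower, with a log2 change of -0.20 (SE 0.065, adjusted p = 0.0130), and the call was lost without replicate 1 of the untreated (adjusted p = 0.0736) or of the treated cells (adjusted p = 0.0645). In TβRII-/- PT cells the log2 difference was -0.14 (SE 0.063, adjusted p = 0.0719), although its libraries did not overlap. It was past the threshold in a fit of only the groups compared (adjusted p = 0.0262) and without replicate 2 of the untreated cells (adjusted p = 0.0493). For the members not called, the 95% intervals of the log2 difference in TβRIIflox/flox PT cells were -0.19 to 0.07 for Mfn1, -0.06 to 0.17 for Opa1, -0.11 to 0.12 for Dnm1l and -0.22 to 0.04 for Fis1. The same intervals in TβRII-/- PT cells were -0.19 to 0.07 for Mfn1, -0.09 to 0.14 for Opa1, -0.00 to 0.23 for Dnm1l and -0.18 to 0.08 for Fis1. All of these intervals lie within a fold of 1.5 in either direction.

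Because Bnip3 and Bnip3l are textbook targets of hypoxia-inducible factors, other genes of that kind were read as a list. Whether these factors had a part in the changes of Bnip3 and Bnip3l was not tested. Of 17 tested hypoxia-inducible genes 10 fell and 2 rose with H2O2 in each genotype, 70.6% of the list beside 41.6% and 39.6% of all genes. The median log2 change of the list was -0.50 in TβRIIflox/flox and -0.30 in TβRII-/- PT cells, beside 0.01 and 0.02 over all genes. Ldha, lactate dehydrogenase A, fell by 0.89 on the log2 scale (SE 0.065, adjusted p = 1.58e-12) in TβRIIflox/flox and fell by 0.85 (SE 0.065, adjusted p = 3.71e-12) in TβRII-/- PT cells. Pgk1, a glycolytic kinase, fell by 0.75 (SE 0.070, adjusted p = 3.65e-10) in TβRIIflox/flox PT cells. Ankrd37 fell by 0.95 (SE 0.312, adjusted p = 0.0148) and fell by 0.99 (SE 0.249, adjusted p = 0.00202). Between genotypes the list was split. Of its tested genes 82.4% were called in untreated cells and 88.2% after H2O2, beside 64.7% and 66.4% of all genes. After H2O2 9 of the list were higher and 6 lower in TβRII-/- PT cells. In untreated TβRII-/- PT cells 9 of its genes were higher, led by the prolyl hydroxylase Egln3 with a log2 difference of 4.24 (SE 0.198, adjusted p = 1.03e-18), and 5 were lower, led by P4ha1, a collagen prolyl hydroxylase, at -1.14 (SE 0.067, adjusted p = 5.61e-16).

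Of 12 tested FoxO-regulated genes, a list chosen because FoxO factors are known to control Bnip3 and Pink1 in other tissues, 5 rose and 2 fell with H2O2 in TβRIIflox/flox and 8 rose and 2 fell in TβRII-/- PT cells, 58.3% and 83.3% of the list beside 41.6% and 39.6% of all genes. Pik3ip1, an inhibitor of phosphoinositide 3-kinase, rose by 1.14 (SE 0.155, adjusted p = 5.57e-07) and by 1.48 (SE 0.159, adjusted p = 8.19e-09). Tsc22d3, which is also a classical glucocorticoid target, fell by 1.75 (SE 0.077, adjusted p = 6.35e-18) and fell by 1.68 (SE 0.072, adjusted p = 2.67e-18) on the log2 scale. Between untreated genotypes 7 of the list were higher and 2 lower in TβRII-/- PT cells, and after H2O2 8 were higher and 1 lower, 9 of 12 each time beside 64.7% and 66.4% of all genes, led by the transcription factor Klf15 with log2 differences of 3.90 (SE 0.169, adjusted p = 1.34e-19) and 3.40 (SE 0.202, adjusted p = 5.60e-16).

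Most of the Pink1 pathway that changed with H2O2 fell, 11 of 21 in TβRIIflox/flox with 3 higher, and 10 of 21 in TβRII-/- PT cells with 1 higher, 66.7% and 52.4% called beside 41.6% and 39.6% of all genes. Vdac1, the outer membrane channel, fell by 0.49 on the log2 scale (SE 0.068, adjusted p = 8.47e-07) in TβRIIflox/flox PT cells. Htra2, a protease of the intermembrane space, fell by 0.66 (SE 0.067, adjusted p = 2.13e-09) and Timm23, the inner membrane import channel, fell by 0.44 (SE 0.089, adjusted p = 0.000189) in TβRII-/- PT cells. Fbxo7, an F-box adaptor of a ubiquitin ligase, rose by 0.37 (SE 0.084, adjusted p = 0.000674) in TβRIIflox/flox PT cells. Of the 19 fusion partners, Opa1 proteases and cristae junction genes 6 fell and 1 rose in TβRIIflox/flox PT cells, and 6 fell and 0 rose in TβRII-/- PT cells, or 3 in all without replicate 2 of the untreated cells. The prohibitin Phb1, which scaffolds the inner membrane, fell by 0.31 (SE 0.077, adjusted p = 0.00152) and fell by 0.31 (SE 0.074, adjusted p = 0.00150). Of the 16 fission adaptors and regulators 2 rose and 4 fell in TβRIIflox/flox, 3 in all without replicate 2 of the untreated or of the treated cells, and 2 rose and 3 fell in TβRII-/- PT cells. Mtfr1, a mitochondrial fission regulator, fell by 0.28 (SE 0.060, adjusted p = 0.000403) and fell by 0.28 (SE 0.060, adjusted p = 0.000353). The other mitophagy receptors and adaptors held fewer calls, 1 up and 3 down in TβRIIflox/flox and 2 up and 1 down in TβRII-/- PT cells. These 4 and 3 calls became 2 without replicate 2 of the untreated or replicate 1 or 2 of the treated TβRIIflox/flox PT cells, and 1 without replicate 2 of untreated TβRII-/- PT cells. Nbr1, an autophagy adaptor, rose by 0.33 (SE 0.056, adjusted p = 1.79e-05) in TβRII-/- PT cells. Of the Atg8 family Gabarapl2 fell by 0.36 (SE 0.112, adjusted p = 0.0101) and fell by 0.38 (SE 0.103, adjusted p = 0.00340), and Map1lc3b rose by 0.31 (SE 0.067, adjusted p = 0.000503) in TβRII-/- PT cells. In TβRIIflox/flox PT cells Gabarapl2 was the 1 gene of the family called, and none was called without replicate 3 of the untreated or of the treated cells. Called in TβRIIflox/flox and TβRII-/- PT cells were 36.8% and 31.6% of the fusion list and 37.5% and 31.2% of the fission list. Of the other mitophagy receptor list 25% and 18.8% were called, and of the Atg8 family 20% and 60%. These shares stood beside 41.6% and 39.6% of all genes.

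**Figure D5:**
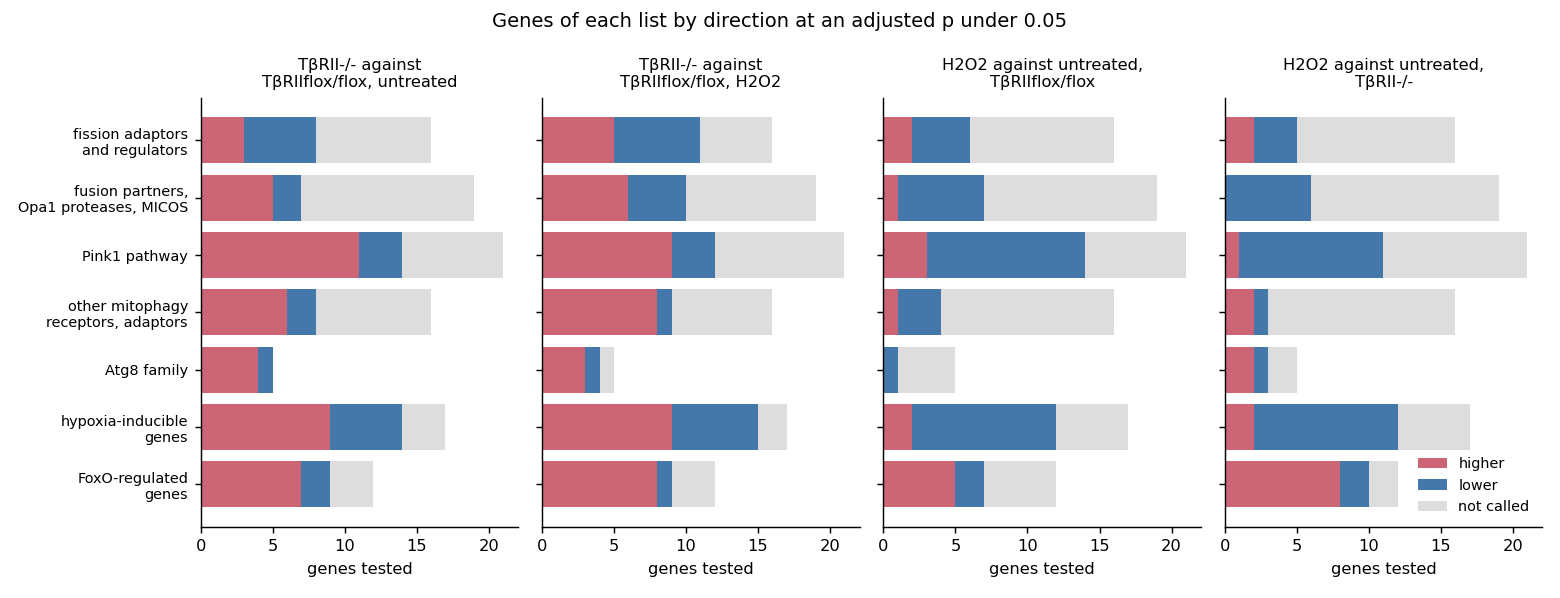
Number of tested genes in each list that were higher, lower or not called at an adjusted p under 0.05, in the 4 comparisons; the 9 members are not in the lists. With H2O2 the called genes of the Pink1 pathway and of the hypoxia-inducible genes are mostly lower in both genotypes, and between genotypes they hold more higher than lower genes.

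The third question was whether the response to H2O2 differed between genotypes, tested as an interaction in the same edgeR fit. None of the 9 members was called, beside 10.2% of all genes; at an unadjusted p under 0.05 there was 1, Fundc1, and DESeq2 called 0. For Fundc1 the change in TβRII-/- minus that in TβRIIflox/flox PT cells was -0.37 on the log2 scale (SE 0.139, 95% interval -0.66 to -0.09, adjusted p = 0.0861). It was past the threshold with counts summed over transcripts (-0.41, adjusted p = 0.0498) and without replicate 2 of H2O2-treated TβRIIflox/flox PT cells (-0.48, adjusted p = 0.0335), and its adjusted p over all alternatives lay between 0.0335 and 0.213. For Bnip3 the interaction was 0.28 with an interval from -0.04 to 0.60 (adjusted p = 0.282). The intervals of Mfn1, Mfn2, Opa1, Dnm1l, Fis1 and Bnip3l all lay between -0.19 and 0.27, and that of Pink1 ran from -0.39 to 0.25. In the lists the Atg8 family held 2 genes with an interaction, Map1lc3b at 0.33 (SE 0.094, adjusted p = 0.0199) and Gabarapl1 at 0.28 (SE 0.091, adjusted p = 0.0429), and the Pink1 pathway 1, Htra2 at -0.44 (SE 0.094, adjusted p = 0.00203). The fission, fusion, other mitophagy receptor and FoxO lists held 1 each and the hypoxia-inducible genes 3. These counts were unstable. The Atg8 and other mitophagy receptor counts fell to 0 with sums over transcripts and without any 1 of several libraries, and the fission and fusion counts also fell to 0 without replicate 2 of untreated TβRII-/- or replicate 1 or 2 of H2O2-treated TβRII-/- PT cells. The hypoxia-inducible count was 6 without replicate 1 of untreated TβRIIflox/flox PT cells.

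For the 3 members whose group means spanned the widest range, the genes with the most similar pattern over the 12 libraries were found among 11041 protein-coding genes with a mean of at least 50 normalized counts, by the root mean square difference of centred log2 values. Fundc1 spanned 1.01 on the log2 scale, and Cyrib, Blvra and Rassf7 lay closest to it, at differences of 0.09, 0.10 and 0.11. Blvra, biliverdin reductase, had group means of 298 normalized counts in untreated TβRIIflox/flox, 534 in untreated TβRII-/-, 261 in H2O2-treated TβRIIflox/flox and 414 in H2O2-treated TβRII-/- PT cells. Bnip3 spanned 0.83, with Odc1, Lgals1 and Eif2s2 closest at 0.11, 0.14 and 0.14, and Bnip3l spanned 0.66, with Dr1, Dnaja2 and Brix1 at 0.05. The smallest spans were those of Mfn1, 0.26, and Dnm1l, 0.28.

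The counts were made per transcript, and a read can count on several transcripts of its gene, so transcripts are not independent measurements. All transcripts of a member with at least 100 counts had the same direction in both genotype comparisons. The 5 transcripts of Fundc1 had log2 ratios between 0.84 and 0.90 in untreated cells, the 8 of Opa1 between 0.35 and 0.53, and the 6 of Fis1 between -0.28 and -0.21. With H2O2 in TβRIIflox/flox PT cells the 5 transcripts of Bnip3 lay between -0.77 and -0.67 and the 3 of Pink1 between 0.34 and 0.38. Some members overlap a gene on the other strand, and the study's methods name a stranded library kit without giving the strand setting of the counting. Mfn1 shares 4740 of its 8671 exon bases with Gnb4, which nevertheless had between 1 and 13 counts a library. Dnm1l shares 3578 of 5488 bases with Yars2, which had 360 to 472 counts and a log2 difference between untreated genotypes of 0.10 (adjusted p = 0.330). Pink1 shares 1514 of 3752 bases with Ddost, a subunit of oligosaccharyltransferase that had 3454 to 5531 counts and was lower in untreated TβRII-/- PT cells by a log2 difference of -0.57 (SE 0.063, adjusted p = 1.83e-09), opposite in sign to the difference of Pink1. Reads of the stretch that Pink1 and Ddost share can be told apart only by strand. Part of Bnip3 (564 bases at 98.9% identity) is copied in Gm16439 and part of Bnip3l (608 bases at 99.3% identity) in Bnip3l-ps, and how reads shared with such copies were counted is not given in the sources used here.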

How the data were processed

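The 12 libraries of mouse PT cells were grouped by their sample labels, 3 a group. Per the labels and the study's methods, the authors trimmed adapters (fastp), ran STAR against GRCm38.p6 and the GENCODE M23 annotation, and used featureCounts for counting. What they deposited are raw whole-number counts for each transcript, although the study describes gene-level counting. The labels name a Qiagen kit and the methods a Macherey-Nagel kit for RNA isolation. GENCODE M39 held 104820 of the 106332 transcript identifiers; the others held 1.22% to 1.28% of a library's counts. The transcript with the highest total stood for its gene. Gene coordinates and promoter windows are RefSeq's of GRCm38.p6.

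Counts were fitted in R 4.3.3 with edgeR 4.0.16 (TMM, filterByExpr, glmQLFit, a mean for each of 4 groups), which tested 12971 genes, and genes were called at a Benjamini-Hochberg adjusted p under 0.05. The second limit, an unadjusted p under 0.01 with a fold of 1.5, is the one the study names. Normalized counts are scaled to the mean effective library size of 17358883 counts. Intervals are 95% intervals of the fit. No 2 replicates agreed within sampling noise. Near-identical copies were searched with BLAST 2.17.0+ at 95% identity over 100 bases. The fit was also run on counts simulated from the means and dispersions of these data, with changes placed in untreated TβRII-/- PT cells only. Such a run cannot show that the calls hold in the real data. From each list up to 3 genes were named per comparison, those with the largest change among genes called with a mean of at least 10 normalized counts, and all members were named. The members, lists and tests were chosen with earlier results of these data known. Alternatives were DESeq2 1.42.0, its size factors in edgeR, other filters on low counts, sums over transcripts, the replicate number as a block, only the groups compared, no mtDNA-encoded genes, and each library left out in turn. Since nothing says that replicates were separate cultures, p-values measure the spread between these libraries. Values of 2 genes of these lists are not reported here.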

Additional observations from a re-analysis of the deposited data

How the results depend on the processing

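Of 675 values of the 9 genes under the alternatives 624 kept their direction and their side of the threshold, 22 lost a call, 6 gained one and 23 changed sign. The member counts stayed between 6 and 7 for untreated genotypes, 7 and 8 for genotypes after H2O2, and 3 and 4 for H2O2 in TβRIIflox/flox PT cells. With the unadjusted p under 0.01 and a fold of 1.5 they were 1, 0, 1 and 0, the last for H2O2 in TβRII-/- PT cells. For H2O2 in TβRII-/- PT cells DESeq2 called 2 members and leaving out single libraries gave 2 to 4. For the interaction sums over transcripts gave 1 and leaving out single libraries 0 to 1. The cause of these changes was not tested.

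All values that changed sign were small and not called. Dnm1l with H2O2 in TβRIIflox/flox PT cells was -0.0033 without a filter on low counts and between -0.014 and 0.053 with a library left out, and Opa1 with H2O2 in TβRII-/- PT cells was -0.049 with sums over transcripts. The interaction of Mfn1 was 0.011 without a filter, 0.00037 with the replicate block and 0.00011 without mtDNA-encoded genes. With a library left out the interaction was -0.057 to 0.038 for Mfn1, -0.0020 to 0.113 for Mfn2, -0.026 to 0.088 for Fis1, -0.189 to 0.016 for Pink1 and -0.062 to 0.088 for Bnip3l.

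Libraries with the same replicate number did not deviate together (correlations of -0.068 to 0.052 over 18 pairs, and -0.071 to 0.094 over 36 pairs of different numbers). No pairing by number was thus visible, which does not show how the libraries were handled. With the replicate block 7, 8, 4, 3 and 0 members were called in the 5 comparisons, and only Bnip3l with H2O2 in TβRII-/- PT cells lost its call (adjusted p = 0.0531). Of 525 counts of the lists 53 moved by more than 1.5 times or fell to 0. Of the members Bnip3 in H2O2-treated TβRIIflox/flox PT cells had the lowest mean count and the widest relative spread, 189 ± 33.5 normalized counts (SD, n = 3), a coefficient of variation of 17.7%.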
